A study of Mus musculus with 2 samples.

Results

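Abundant long intergenic non-coding RNAs (lincRNAs) of the pressure-loaded mouse heart are described here: the genes of type lincRNA in GENCODE M21 that reached 5 CPM (the count per 1e+06 gene counts of the library) in either library. Meg3, H19, Rian, Mirg and the mitochondrial genes were left out by the same rule, which removed 2 lincRNA genes above the floor, Meg3 and H19. The rule kept 134 genes, of 5614 lincRNA genes and 55401 genes counted in all; 1496 lincRNA genes had at least 1 count. The dioscin library was made from hearts of C57BL/6 mice with transverse aortic constriction (TAC), in which the aorta is tied narrow so that the left ventricle pumps against raised pressure, and with dioscin, a plant steroidal saponin, over 4 weeks. The TAC library was made from C57BL/6 hearts with the same surgery and is taken as untreated from its treatment label, since the treatment text is worded alike for both samples. Each group had 1 library, so no difference below has a replicate check and no p-value is given; sex, age and the number of hearts behind a library are not stated in the labels. Hearts without surgery were not analysed here.

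LincRNAs are transcripts longer than typical small RNAs that are made from genes lying between protein-coding genes, are mostly spliced and polyadenylated, and are not thought to be translated as a class. Some stay in the nucleus as parts of nuclear bodies, some act on genes close to where they are made, and others are hosts whose introns or exons carry microRNAs or small nucleolar RNAs. In the heart, individual lincRNAs have been linked to lineage commitment, to the control of transcription factor genes next to them and to remodelling under load.

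Several lincRNAs in the set are microRNA hosts, and the mature microRNAs they carry are shown because hosts hold several of them, some with a shared seed. Of the 134 genes, 6 were found to hold 25 mature microRNAs on their own strand in the RefSeq annotation (GRCm38.p6). The 5 genes on a chromosome left out of this search are not covered. The sequences below are RefSeq's, written 5′ to 3′, with the seed (bases 2 to 8) in capitals. Mir17hg on chromosome 14 held 11 of them, the miR-17-92 cluster, known for promoting proliferation.
miR-17-5p: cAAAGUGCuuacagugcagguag
miR-20a-5p: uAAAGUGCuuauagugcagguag
miR-18a-5p: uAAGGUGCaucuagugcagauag
miR-19a-3p: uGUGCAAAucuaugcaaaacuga
miR-19b-3p: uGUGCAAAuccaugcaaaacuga
miR-92a-3p: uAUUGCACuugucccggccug
The first pair shares the seed AAAGUGC and the miR-19 pair shares GUGCAAA, while miR-18a-5p and miR-92a-3p each have a seed of their own. 6720427I07Rik on chromosome 13 held 6 arms of the let-7 family, known as repressors of growth genes, and its 5p arms share the seed GAGGUAG.
let-7a-5p: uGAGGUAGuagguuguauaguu
let-7f-5p: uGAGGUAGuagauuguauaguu
let-7d-5p: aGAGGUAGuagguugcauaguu
The remaining hosts found were Ftx, E130102H24Rik, Snhg20 and 2900076A07Rik. Ftx held 3 arms of miR-374b and miR-421, E130102H24Rik both arms of miR-101a, Snhg20 both arms of miR-6516 and 2900076A07Rik miR-1839-5p. The libraries do not measure mature microRNAs, so the values below are those of the host transcripts.

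None of the 6 host transcripts was called after TMM scaling, that is, none met the size rule used throughout: a ratio of dioscin over TAC of at least 2-fold in either direction, after TMM scaling, with an exact 95% counting interval that excludes 1. By this rule 14.6% of all genes at 5 CPM or more in either library were called. Mir17hg (chromosome 14, 115042879 to 115046727, plus strand) had 110 counts in the dioscin library and 172 in the TAC library, a ratio of 0.646 (0.503 to 0.824). The let-7 host 6720427I07Rik had 226 counts in the dioscin library and 335 in the TAC library, a ratio of 0.681 (0.572 to 0.808). Ftx, a non-coding gene of the X-inactivation centre, had 147 and 243 counts, a ratio of 0.611 (0.494 to 0.752). Snhg20, the miR-6516 host, had 266 counts in the dioscin library and 487 in the TAC library, a ratio of 0.552 (0.473 to 0.641), the lowest of the 6. With mitochondrially encoded counts left out of the totals its log2 ratio was −1.06 and it was called lower. The intervals of these 4 hosts lie below 1. The miR-101a host E130102H24Rik had 179 counts in the dioscin library and 177 in the TAC library, and its interval of 0.824 to 1.26 spans 1. The miR-1839 host 2900076A07Rik had 370 and 319 counts, with an interval of 1.00 to 1.36.

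A pair of nuclear RNAs from 1 locus held most of the lincRNA signal, and neither met the size rule. Neat1 (ENSMUSG00000092274.3; chromosome 19, 5824708 to 5845478, minus strand), the scaffold of nuclear paraspeckles, had 77423 counts in the dioscin library and 68347 in the TAC library, or 4523 and 3958 CPM on TMM-scaled library sizes. Its ratio was 1.14 (1.13 to 1.15), a log2 ratio of 0.19. Malat1 (ENSMUSG00000092341.3; chromosome 19, 5795690 to 5802672, minus strand), an RNA of nuclear speckles, had 24276 counts in the dioscin library and 23919 in the TAC library, or 1418 and 1385 CPM, a ratio of 1.02 (1.01 to 1.04). Per kilobase of exon the pair stood at 218 and 203 CPM per kb in the dioscin library and at 191 and 198 CPM per kb in the TAC library, so Neat1 led in the dioscin library and Malat1 in the TAC library. Both signs depend on the scaling: the log2 ratio of Neat1 turned to −0.01, and that of Malat1 to −0.17, when mitochondrially encoded counts were left out of the totals. Neat1 made up 58.0% of the counts of the 134 genes in the dioscin library and 52.0% in the TAC library, and Malat1 18.2% in both. The other 132 genes held 23.8% and 29.8%, and their summed level was 1854 CPM in the dioscin library and 2267 CPM in the TAC library. All 134 genes together took 0.758% of the dioscin library's gene counts and 0.783% of the TAC library's.

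The transcripts of proteins that work with these RNAs did not pass the size rule either, and no protein was measured. Of 8 paraspeckle protein genes, including those of the RNA-binding scaffolding proteins Sfpq and Nono, 0 were called, with a median log2 ratio of 0.01. Of 7 speckle protein genes 0 were called (median −0.20), and of 8 core protein genes of small nucleolar RNA particles 0 were called (median 0.32). Of all genes at the floor 14.6% were called. Sfpq had 77.4 CPM in the dioscin library and 74.5 CPM in the TAC library, and Nono 77.1 and 56.2 CPM.

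Beyond this pair the levels fell steeply. 1700020I14Rik, the RNA named Cyrano in the literature and Oip5os1 in RefSeq, known for promoting the decay of miR-7, was the third most abundant by mean CPM, with 3301 counts in the dioscin library and 4093 in the TAC library. Its ratio of 0.814 (0.777 to 0.852) was below the size rule. The median level of the 134 genes was 7.97 CPM in the dioscin library and 9.09 CPM in the TAC library. Ranked per kilobase, 5430431A17Rik came after Neat1 and Malat1, at 57.6 CPM per kb in the dioscin library and 120 CPM per kb in the TAC library.

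**Figure D1:**
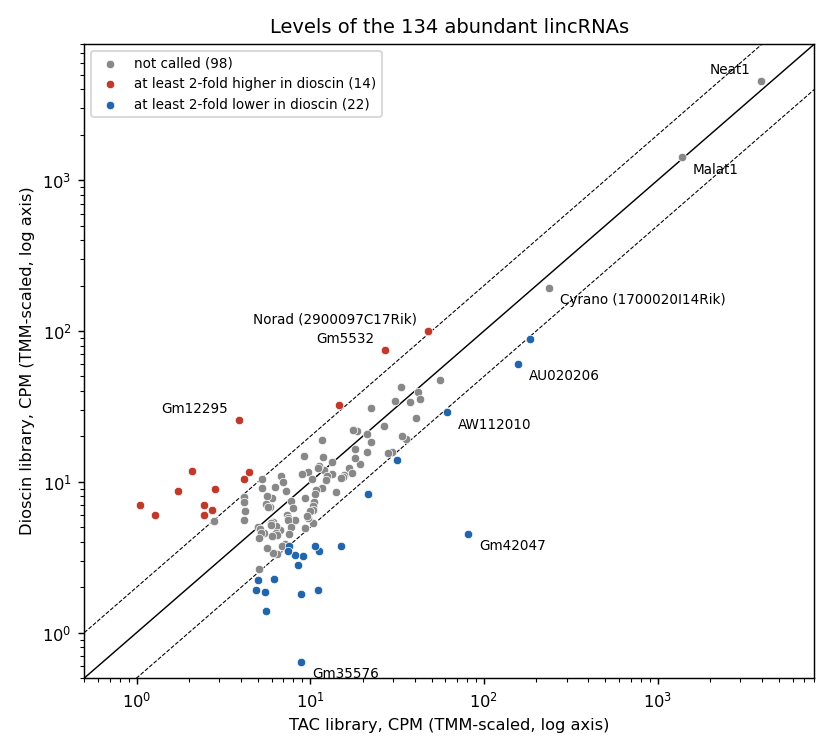
Level of each of the 134 lincRNA genes in the dioscin library (vertical axis) against the TAC library (horizontal axis), in TMM-scaled CPM on log axes; each point is 1 gene, the solid line marks equal levels and the dashed lines a 2-fold difference. Neat1 and Malat1 stand apart at the top right on the line of equal levels, and most genes lie near 10 CPM.

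Over the whole set, more lincRNAs were lower than higher in the dioscin library. 14 of 134 were called higher (10.4%) and 22 lower (16.4%), against 8.67% higher, 5.93% lower and 14.6% in either direction among the 11889 genes of all types at the same floor, and 8.34% higher and 5.46% lower among protein-coding genes. The remaining 98 were not called. The median log2 ratio was −0.27, with quartiles of −0.74 and 0.29 and a range from −4.16 to 2.73, and 87 of the 134 genes (64.9%) lay below 0. Over all genes at the floor the median was 0.03 and 48.3% lay below 0, and over the 10973 protein-coding genes the median was also 0.03. The rule used the level in either library, so these counts are a description. It admitted 37 genes through the TAC library only, 16 through the dioscin library only and 81 through both, and a gene admitted through 1 library could hardly differ in the other direction. Among the 37, 17 (45.9%) were called lower and 0 higher, against 44.7% lower of all 705 genes admitted through the TAC library only. Among the 16, 11 (68.8%) were called higher and 0 lower, against 62.0% higher of all 563 genes admitted through the dioscin library only. Among the 81 above the floor in both libraries, 3 were called higher and 5 lower, 9.88% in either direction against 10.1% of all genes above the floor in both libraries, so the share called was near the background there. By direction the background was 6.42% higher and 3.67% lower. The median of those 81 was −0.24, beside 0.04 for all genes above the floor in both.

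Other gene types gave a scale for this shift. The median log2 ratio at the same floor was −0.04 for 315 antisense genes, −0.15 for 119 processed transcripts and −0.28 for 59 genes of type TEC, models still to be tested by experiment. The 232 lincRNA genes from 1 CPM to below 5 CPM had a median of −0.44, with 42 called higher (18.1%) and 65 lower (28.0%). All 3888 genes in that range had a median of −0.10, with 16% higher, 17.9% lower and 34% in either direction. Nearest to the threshold, Gm49539, Gm19710 and Gm45250 were admitted at 5.01, 5.12 and 5.12 CPM of the raw total in their higher library. Gm48898, Gm11734 and Gm49390 were left out at 4.94, 4.77 and 4.71 CPM.

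**Figure D2:**
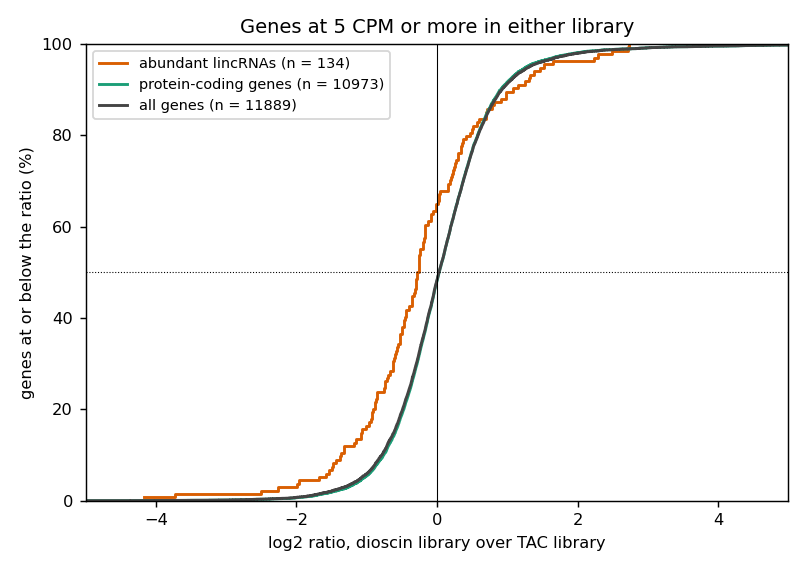
Cumulative share of genes (vertical axis, percent) at or below each log2 ratio, dioscin over TAC (horizontal axis), for the 134 abundant lincRNAs, the 10973 protein-coding genes and all 11889 genes at 5 CPM or more in either library. The lincRNA curve crosses 50% at −0.27 and the other 2 curves at 0.03, while at high ratios the 3 curves lie close together.

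Among the lincRNAs of known role, 1 of 13 was called, beside 14.6% of all genes at the floor. That gene was 2900097C17Rik, named Norad in RefSeq (ENSMUSG00000102869.2; chromosome 2, 156388065 to 156392979, minus strand), a cytoplasmic RNA that binds Pumilio proteins and guards chromosome stability. Norad had 1720 counts in the dioscin library and 818 in the TAC library, or 100.5 and 47.4 CPM, a ratio of 2.12 (1.95 to 2.31). No annotated gene overlaps its exon, and its nearest measured coding gene, Cnbd2, had 225 and 222 counts, a ratio of 1.02 (0.846 to 1.24). The lower bound of the Norad interval lies just under 2, and with mitochondrially encoded counts left out of the totals its log2 ratio was 0.88 and it was no longer called.

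The other 12 genes of this list stayed inside the rule. Snhg20, Snhg12, Snhg18 and Snhg6 are host genes of small nucleolar or Cajal body RNAs, and their log2 ratios were −0.86, −0.26, 0.16 and −0.26. The intervals of Snhg12, Snhg18 and Snhg6 span 1, and the log2 ratio of Snhg18 was −0.04 with mitochondrially encoded counts left out of the totals. Epb41l4aos, which also holds a snoRNA model, had 159 and 108 counts, a log2 ratio of 0.57. The small RNAs inside these hosts had few counts: Snord123 had 3 in the dioscin library and 11 in the TAC library, Snord87 had 0 and 7, and the 5 small RNAs inside Snhg12 had 0 in both. Bvht (Braveheart), an RNA that mouse embryonic stem cells need to commit to the cardiac lineage, had 268 counts in the dioscin library and 367 in the TAC library, a ratio of 0.737 (0.627 to 0.865). Jpx, an activator of Xist, had 78 and 109 counts, a ratio of 0.723 (0.533 to 0.974). Gm14005, which RefSeq names Morrbid, a regulator of the lifespan of myeloid cells, was matched through its RefSeq name only and had 57 counts in the dioscin library and 111 in the TAC library, a log2 ratio of −0.94.

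Other long non-coding RNAs of known role lay outside the set, by their level or their gene type. Of 59 listed names that match no GENCODE symbol in the set, 44 were found and 30 reached 1 CPM. The names not found include Norad, Cyrano, Oip5os1 and Morrbid, which are other names of genes in the set. Some of the names found, such as Mtln and Nbdy, are typed protein-coding. Of the 30, 2 were called higher, 9 lower and 19 not called. Among all genes at 1 CPM or more, 10.5% were called higher, 8.88% lower and 19.4% in either direction. Kcnq1ot1, the imprinted antisense RNA of the Kcnq1 locus, had 133 counts in the dioscin library and 419 in the TAC library, a log2 ratio of −1.64. Lncpint, a p53-induced RNA, had 78 and 17 counts, a log2 ratio of 2.18. Carmn, an RNA of smooth muscle and cardiac progenitors, had 12 and 46 counts, a log2 ratio of −1.88. Xist had 9 counts in the dioscin library and 23 in the TAC library and the Y-linked Ddx3y had 1497 and 1332.

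Among the genes called higher, Gm5532 was the most abundant after Norad. Gm5532 (ENSMUSG00000073535.5; chromosome 1, 155520173 to 155527143, minus strand), a lincRNA of 2 exons with no exon overlap, had 1280 counts in the dioscin library and 465 in the TAC library, a ratio of 2.78 (2.50 to 3.09). Its neighbour Acbd6, an acyl-CoA binding protein gene that starts 30977 bases away on the opposite strand, had 517 and 274 counts, a ratio of 1.90 (1.64 to 2.21), short of the rule. The largest ratio of the set was that of Gm12295 (chromosome 11, 65277654 to 65365798, minus strand), with 442 counts in the dioscin library and 67 in the TAC library, a ratio of 6.61 (5.14 to 8.74). Gm12295 lies 7665 bases from Myocd, the smooth and cardiac muscle coactivator, on the same strand, and Myocd had 357 and 309 counts, a ratio of 1.17 (0.998 to 1.36). Gm11827 had 120 counts in the dioscin library and 18 in the TAC library, a ratio of 6.57 (4.08 to 11.7). Gm48283 had 203 and 36 counts, AC119982.1 148 and 30, and Gm44421 104 and 22, with log2 ratios of 2.49, 2.30 and 2.23. The remaining named genes called higher, Gm47162, Gm20186 and AC158549.1, had between 120 and 199 counts in the dioscin library and between 42 and 77 in the TAC library.

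Among the genes called lower, Gm42047 differed the most. Gm42047 (ENSMUSG00000110631.1; chromosome 8, 121833247 to 121841178, plus strand) had 77 counts in the dioscin library and 1402 in the TAC library, or 4.50 and 81.2 CPM, 17.9-fold lower (14.3 to 23.0). By mean CPM over both libraries it ranked 10 of the 134 genes. Its neighbour Klhdc4, whose start is 3678 bases from that of Gm42047 on the opposite strand, had 396 and 452 counts, a ratio of 0.884 (0.770 to 1.01). Gm42047 lies within the span of the coding model Gm20388 without exon overlap, and its longest open reading frame has 393 codons. Gm35576 had 11 counts in the dioscin library and 153 in the TAC library, 13.2-fold lower (7.49 to 28.2). Gm46565 had 33 and 191 counts, 5.67-fold lower (3.95 to 8.57), and Gm30262 had 31 and 152 counts, 4.80-fold lower (3.29 to 7.40).

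The abundant genes called lower had smaller ratios on more counts. 5430431A17Rik (chromosome 7, 44473538 to 44486138, plus strand) had 1522 counts in the dioscin library and 3202 in the TAC library, 2.08-fold lower (1.96 to 2.22). AU020206 (ENSMUSG00000097415.2; chromosome 7, 75769038 to 75782099, minus strand) had 1035 and 2709 counts, 2.59-fold lower (2.41 to 2.79). AW112010 (chromosome 19, 11047612 to 11055808, minus strand), which is induced in mouse immune cells by interferon and bacterial products, had 495 counts in the dioscin library and 1058 in the TAC library, 2.12-fold lower (1.90 to 2.36). The 3 genes have no exon overlap with other genes, and their nearest coding genes Josd2, Akap13 and Ccdc86 were not called. The other named genes called lower, Gm33609, Gm20342, AI839979, Gm17745 and Gm33195, lay between 24 and 64 counts in the dioscin library and between 96 and 259 in the TAC library. Gm20342 lies close to Ino80dos at the Ino80d locus, and Ino80dos, not called, had 324 counts in the dioscin library and 201 in the TAC library, a log2 ratio of 0.70.

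**Figure D3:**
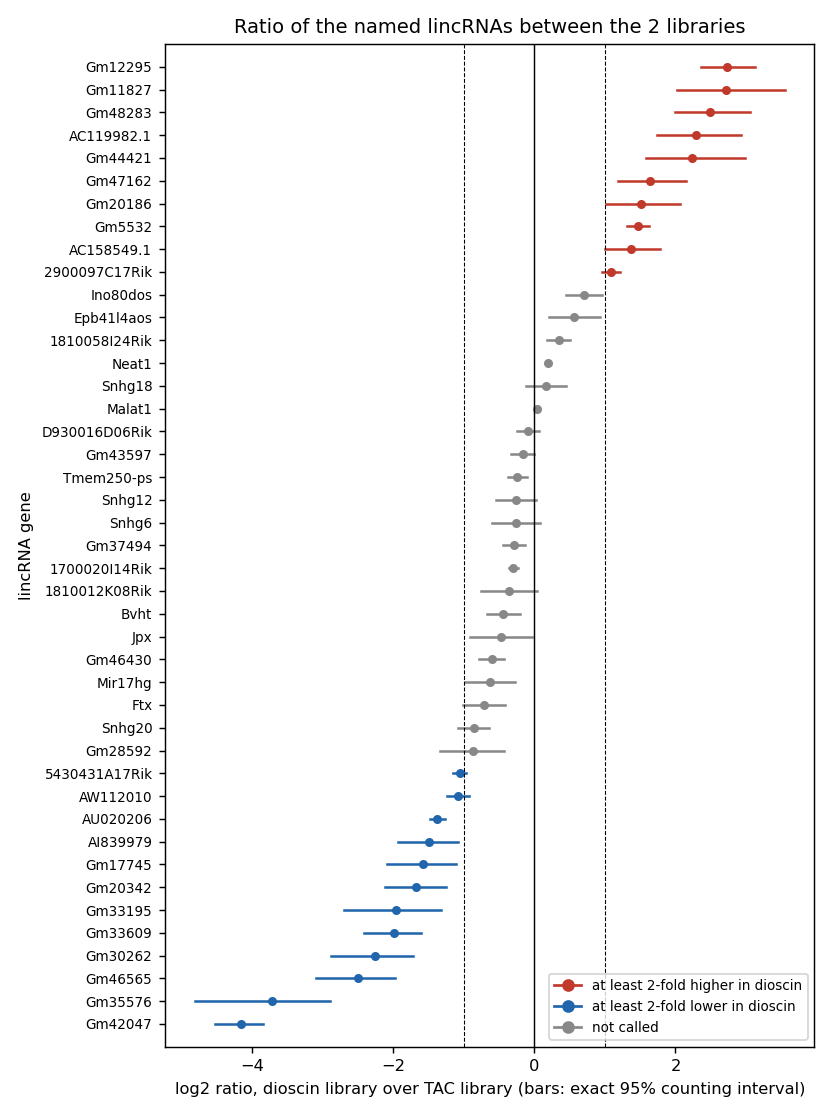
Log2 ratio, dioscin over TAC (horizontal axis), for the 43 lincRNAs chosen by the naming rule (vertical axis), with exact 95% counting intervals as bars; dashed lines mark 2-fold. The points run from −4.16 for Gm42047 to 2.73 for Gm12295, and the bars of Neat1 and Malat1 are narrower than their points.

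The promoters of a gene called higher and 2 called lower are shown because their start is placed within 100 bases of the GENCODE start by RefSeq, and because they differ in the motifs found. Each is the RefSeq (GRCm38.p6) sequence from 250 bases before to 50 bases after the start, 5′ to 3′ on the gene's own strand, with any motif match in capitals. Gm5532, higher in the dioscin library, lies at chr1:155527062-155527361 on the minus strand and held none of the 7 motifs searched.
Gm5532: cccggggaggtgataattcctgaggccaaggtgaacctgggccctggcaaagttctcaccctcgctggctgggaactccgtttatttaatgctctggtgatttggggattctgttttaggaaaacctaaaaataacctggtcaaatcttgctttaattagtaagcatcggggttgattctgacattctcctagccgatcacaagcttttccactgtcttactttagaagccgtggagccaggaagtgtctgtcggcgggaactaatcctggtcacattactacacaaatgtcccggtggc
AU020206, lower in the dioscin library, lies at chr7:75782071-75782370 on the minus strand, and its capitals mark GGGCGG 23 bases before the start.
AU020206: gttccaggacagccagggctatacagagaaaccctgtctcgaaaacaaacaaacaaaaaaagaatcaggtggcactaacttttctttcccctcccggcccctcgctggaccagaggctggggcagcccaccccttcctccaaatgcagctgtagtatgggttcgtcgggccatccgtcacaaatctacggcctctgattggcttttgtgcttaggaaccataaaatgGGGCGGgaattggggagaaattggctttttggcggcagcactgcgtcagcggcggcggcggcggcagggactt
9330175E14Rik, lower in the dioscin library and facing Nlrc5, lies at chr8:94435054-94435353 on the minus strand. Its capitals mark CACGTG 59 bases before the start and GGGCGG, read on the other strand, 181 bases before it.
9330175E14Rik: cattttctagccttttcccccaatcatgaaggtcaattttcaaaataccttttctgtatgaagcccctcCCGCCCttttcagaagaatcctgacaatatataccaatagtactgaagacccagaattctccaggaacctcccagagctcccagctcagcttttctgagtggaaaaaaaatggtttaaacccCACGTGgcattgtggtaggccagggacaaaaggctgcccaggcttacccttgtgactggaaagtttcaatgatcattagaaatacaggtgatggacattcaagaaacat
RefSeq promoters were found for 65 of the 134 lincRNAs, 88 promoters in all. Some genes had several, at times overlapping, so the shares below count promoters and not genes. Only 36 of the 65 lincRNAs had a RefSeq start within 100 bases of the GENCODE start, and that of Gm12295 lay 77965 bases away. The other promoters may not be those of the transcripts counted. Both strands were searched for TATAAA (the TATA box), CACGTG (the E-box of Myc-type factors), ACANNNTGT (the core of the glucocorticoid and androgen receptor element), TGACTCA (bound by AP-1), GGGCGG (the core of the GC box), TTCNNNGAA (bound by STAT factors) and GAAA repeated after 2 unspecified bases (bound by interferon regulatory factors). GGGCGG stood in 21.6% of the lincRNA promoters and in 35.7% of all 32851 RefSeq promoters. ACANNNTGT stood in 1.14% and 6.85%, TATAAA in 12.5% and 13.6%, and CACGTG in 5.68% and 7.15%. TGACTCA stood in 3.41% and 5.20%, the repeated GAAA in 3.41% and 3.44%, and TTCNNNGAA in 7.95% and 8.30%. The lincRNA promoters thus held GGGCGG and ACANNNTGT in a smaller share than all promoters, a description of these letters and not of any factor.

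LincRNAs and the coding genes beside them had ratios that ran partly together. Over the 134 lincRNAs and their nearest protein-coding gene at 1 CPM or more (127 distinct genes), Pearson's r of the log2 ratios was 0.49 and Spearman's rho 0.44. With the second nearest such gene r was 0.04. All points come from the same pair of libraries and share their scaling, and neighbouring genes are not independent, so r is a description. It was 0.91 (rho 0.85) over the 21 lincRNAs that overlap their neighbour on the opposite strand. The kit leaves strand unmarked, so where exons of such a pair overlap, reads of both genes cannot be told apart. Over the 13 that lie within 5 kb downstream on the same strand r was 0.81 (rho 0.45). Over the 77 lincRNAs with no exon overlap r was 0.41, and over the 53 at least 10 kb away it was 0.44 (rho 0.26). Of the 127 distinct neighbours, 15 were called higher (11.8%) and 6 lower (4.72%), beside 9.77% higher, 7.35% lower and 17.1% in either direction of all protein-coding genes at 1 CPM or more. Of the 14 lincRNAs called higher, 6 had a neighbour called higher and 0 had one called lower, and of the 22 called lower, 5 had a neighbour called, 4 of them lower.

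In 11 pairs both genes were called, and 4 of them are described first. Gm44421 (104 counts in the dioscin library and 22 in the TAC library) lies 3228 bases downstream of Klf15, a Krüppel-like factor of cardiac metabolism, which had 992 and 186 counts. The log2 ratio was 2.23 for the lincRNA and 2.42 for Klf15. Gm11827, 29433 bases from the p53-induced gene Trp53inp1, had a log2 ratio of 2.72, and Trp53inp1, with 695 counts in the dioscin library and 330 in the TAC library, had 1.09. 9330158H04Rik (554 counts in the dioscin library and 252 in the TAC library) overlaps Chrm2, the muscarinic receptor of the heart, over 1.55% of its exon bases. Its log2 ratio was 1.15 and that of Chrm2 was 1.33. 9330175E14Rik overlaps Nlrc5, the transactivator of MHC class I genes, over 1.31% of its exon bases on the opposite strand, with starts 747 bases apart. The lincRNA had 32 counts in the dioscin library and 95 in the TAC library, and Nlrc5 had 397 and 1070 counts. Their log2 ratios were −1.54 and −1.42.

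Other pairs are described next, some with a lincRNA that was not called. Gm35576 had a log2 ratio of −3.73 and its neighbour Dll1, a Notch ligand 81996 bases away, −1.13. Gm30262 had −2.26 and Phlda1, 90532 bases away, −1.38. Gm14827 was the only lincRNA called against its called neighbour: it had 60 counts in the dioscin library and 129 in the TAC library, whereas Apoo, a protein of the mitochondrial cristae, had 826 and 278 counts. Beside Hand2, a transcription factor of heart development that had 909 counts in the dioscin library and 329 in the TAC library (log2 ratio 1.48), lie 5033428I22Rik, known as handsdown and named Hdnr in RefSeq, and Gm34030. 5033428I22Rik had 188 and 117 counts and Gm34030 135 and 72, log2 ratios of 0.69 and 0.91, neither called. Exons of 5033428I22Rik on the opposite strand cover 74.4% of the exon bases of Gm34030, so their reads cannot be told apart there. Gm43050 starts 748 bases from Tbx5, a factor of atrial and septal development, on the opposite strand. Tbx5 had 1019 counts in the dioscin library and 110 in the TAC library (log2 ratio 3.22), and Gm43050 had 126 and 72 (0.82), not called. 9330158H04Rik, 9330175E14Rik, Gm14827, 5033428I22Rik, Gm34030, Gm43050 and Gm14005 were chosen for the text after their values were seen.

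**Figure D4:**
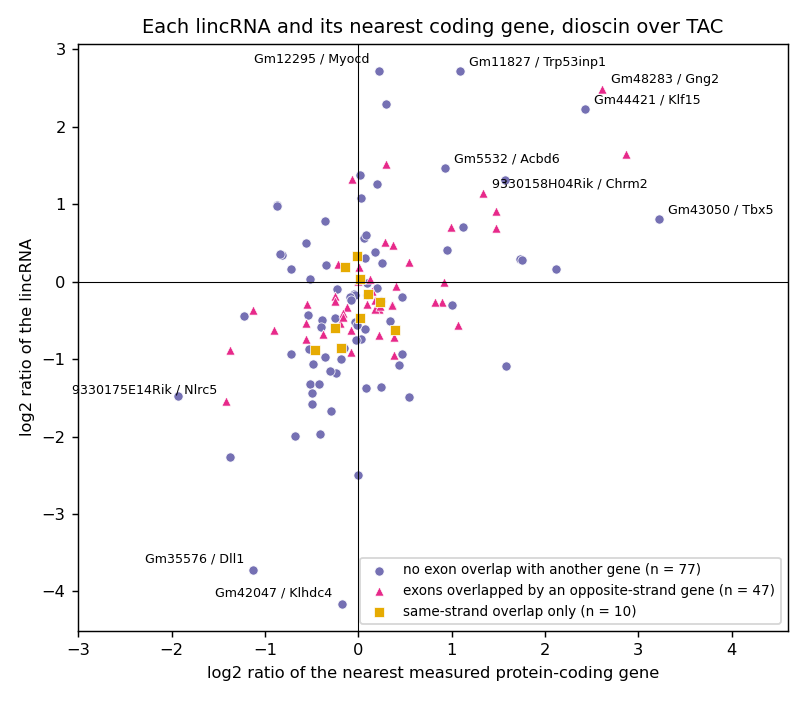
Log2 ratio (dioscin over TAC) of each lincRNA (vertical axis) against that of its nearest measured protein-coding gene (horizontal axis), 134 points marked by whether exons overlap another gene. Klf15, Gng2 and Chrm2 lie near their lincRNAs' ratios at the upper right, while Gm12295 and Gm42047 lie far from 0 beside neighbours with log2 ratios of 0.22 and −0.18.

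Overlap with other genes bears on some values. The kit does not mark strand, so reads from overlapping genes on opposite strands cannot be told apart: 47 lincRNAs have exons overlapped by an opposite-strand gene, and 77 have no exon overlap with any gene. Of the 77, 9 were called higher and 21 lower, and of the 57 with an overlap 5 were called higher and 1 lower, beside 8.67% higher and 5.93% lower of all genes at the floor. Gm47162 (153 counts in the dioscin library and 49 in the TAC library) has no exon base free of an opposite-strand gene, Gm48283 has 39.1% free beside Gng2, a G protein subunit gene with 577 and 95 counts, and Gm20186 has 18.6% free, so the values of these 3 genes called higher are uncertain. Malat1 is overlapped over 6.49% of its exon bases by Gm37376, a TEC gene model on the opposite strand with 4026 and 3744 counts. As a check on strand, 42 non-coding genes nested wholly within exons of an opposite-strand coding gene together held 11433 counts in the dioscin library and 11675 in the TAC library. At least 10 counts were held by 37 of them in the dioscin library and by 38 in the TAC library. Per exon base, the median ratio of their counts to those of the coding gene was 1.94 and 1.93. The strand setting of the counting was not tested further.

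In sequence and structure the set was short and simple beside coding genes. The median exon length was 2532.5 bases against 4698 for the 10973 protein-coding genes at the floor, and the median largest exon number of a transcript was 3 against 10. 21 of the 134 (15.7%) have a single exon, among them Norad. The median longest open reading frame was 80 codons against 477, and 38 genes (28.4%) had one of at least 100 codons against 98.4% of coding genes. Median GC content was 45.9% against 49.8%. Matched by symbol or synonym and by chromosome, RefSeq lists 77 of the 134 as lncRNA, 8 as protein-coding and 1 as a transcribed pseudogene, and 48 had no match. For 4732487G21Rik, counted among the 8, the match is Gpatch2l, the coding gene that overlaps it on the opposite strand, and not the lincRNA itself. Among the 8 are 1810058I24Rik, named Stmp1, which encodes a small mitochondrial protein, with 729 counts in the dioscin library and 579 in the TAC library, and Lsmem2, a single-pass membrane protein gene, with 331 and 612 counts. None of the 8 was called, beside 14.6% of all genes at the floor, and their median log2 ratio was −0.26, near that of the set.

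The libraries held 17612259 gene counts for dioscin and 16782741 for TAC, and the intervals above cover counting error only. Near the floor they are wide: Gm19710, with 86 counts in each library, had an interval of 0.739 to 1.38. The libraries also differed in markers of the tissue they hold. All 6 atrial markers were called higher, with a summed level of 17549 CPM in the dioscin library and 594 CPM in the TAC library, where Mybphl was at 0. Of the mesothelial markers 7 of 8 were higher, at 153 and 18.5 CPM, with Krt8 and Krt18 at 0 in the TAC library, and of the 7 adipocyte markers all 5 measured were higher, at 31.1 and 0.811 CPM, with Retn, Cidec, Plin1 and Lep at 0 in the TAC library. Of the B cell markers 5 of 6 were measured and all 5 were lower, at 3.86 and 17.1 CPM, whereas 0 of 8 cardiomyocyte markers were called. Of the fibroblast markers 2 of 6 were higher and 4 were not called, at 1359 and 463 CPM. Dcn alone held 1062 CPM of that sum in the dioscin library and 259 CPM in the TAC library. Of the macrophage markers 2 were higher and 1 lower of 6, at 207 and 104 CPM. Of the endothelial markers 2 were higher and 1 lower of 6, at 1463 and 1492 CPM, of the T cell markers 1 was higher and 2 lower of 3 measured, at 5.78 and 9.21 CPM, and 0 of 5 smooth muscle and 0 of 3 erythroid markers were called. These differences lie between the same pair of libraries as every lincRNA ratio above, and their part in those ratios was not tested. In whole tissue, fewer cells of a type and less RNA per cell cannot be told apart.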

How the data were processed

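RNA-seq of mouse heart was analysed from the deposited raw counts of reads per gene, 1 library per group. HISAT2 2.1.0, HTSeq and the build mm10 are named in the submitters' processing notes; the HTSeq version, the annotation release and the strand setting are not given in the sources used here. Per the labels' protocols the kit was TruSeq RNA on 1 ug of RNA, a kit that leaves strand unmarked. The 5 closing HTSeq lines, which name no gene, stayed out of all totals: reads in no gene were 30.03% of the dioscin library's lines and 30.04% of the TAC library's, reads with several alignments 36.5% and 38.2%, ambiguous reads 1.39% and 1.49%, low quality reads 1.48% in both and reads not aligned 2.17% and 2.59%. Mitochondrially encoded genes held 25.5% of gene counts in the dioscin library and 31.6% in the TAC library.

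Gene types and coordinates came from GENCODE M21 (55141 of 55401 identifiers matched, 260 did not). Counts were scaled by TMM in edgeR 4.0.16 (R 4.3.3), with a pseudocount of 0.5 in ratios. A gene was called at a ratio of 2-fold or more with an exact 95% Clopper-Pearson interval excluding 1; with 1 library a group there is no test. This size rule and its intervals were tested on simulated counts. Unless raw totals are named, CPM uses TMM-scaled sizes. Ratios and plots used Python 3.11.15, pandas 2.3.3, SciPy 1.17.1 and matplotlib 3.10.9.

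The 43 named lincRNAs were the 15 most abundant, the 10 called higher and 10 called lower with interval bounds farthest from 1, those in a list of known roles, and those within 100 kb of these abundant or these called ones. The genes nearest to the threshold were named in the text as well and are not among the 43. The members and lists were chosen with earlier results of these data known. Alternatives were other scalings, folds, floors, a pseudocount of 1 and the removal of lincRNAs with exon overlap.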

Additional observations from a re-analysis of the deposited data

How the results depend on the processing

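With 1 library per group, calls rest on counting error alone, and leaving out a replicate was not possible. No paired analysis was possible because each group has 1 library. Calls of the lincRNAs were 14 higher, 22 lower and 36 in all. At 1.5-fold they were 23 higher, 44 lower and 67 in all, and at 3-fold 6, 7 and 13. With 5 CPM in both libraries they were 3, 5 and 8 of 81, and with 10 CPM in either library 7, 10 and 17 of 71. Over the 77 lincRNAs with no exon overlap they were 9, 21 and 30. Over all genes, 1031 higher and 705 lower (1736 in all) became 2378, 1910 and 4288 at 1.5-fold, 418, 217 and 635 at 3-fold, 1655, 1401 and 3056 at 1 CPM, and 2022, 1815 and 3837 with no floor but 1 count. Scaling moved the split: total counts gave 885 higher and 857 lower, and totals without mitochondrially encoded genes 717 and 1173. That last scaling shifted the median of all genes to −0.18 and of the lincRNAs to −0.48, and called 12 lincRNAs higher and 32 lower. A scaling shifts all genes alike, so the −0.30 between these medians holds by construction. Of 172 comparisons of the 43 named lincRNAs under other scalings and the pseudocount, 157 kept their side of the rule and, if not called, stayed within their interval, and 12 more, not called, moved beyond it. Without mitochondrially encoded genes 2900097C17Rik lost its call (0.88), and Snhg20 (−1.06) and Gm28592 (−1.08) gained one. In 4 comparisons of genes not called the sign changed. The correlation with the neighbour (0.49) was 0.41 with no exon overlap, 0.44 at 10 kb or more and 0.043 for the second nearest gene; these alternatives were chosen after seeing the data. The causes were not tested.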
